A study of Homo sapiens with 24 samples.

Results

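The transducers of interferon signalling described here are 9 human genes, chosen by name: the Janus kinases JAK1 and TYK2, the transcription factor STAT2, the interferon regulatory factors IRF1, IRF2, IRF3, IRF7 and IRF9, and the inhibitor SOCS1. Of these, 8 had an identifier among the 60236 gene identifiers of the count table, and IRF9 was not analysed here. HEK293T, a human embryonic kidney line, and A549, a line from a human lung adenocarcinoma, were each transfected with 1 of 4 plasmids and collected after 48 h, with 3 libraries in each of the 8 groups. Plasmids for snaR-A, a small noncoding RNA made by RNA polymerase III, and for a scrambled control sequence (scramble) drove their insert from a U6 promoter. Plasmids for SF3B2, a subunit of the U2 small nuclear ribonucleoprotein of the spliceosome, and for the control protein eGFP had a protein expression backbone. All groups received plasmid DNA and transfection reagent, and eGFP and scramble differed in backbone as well as insert, so that these cannot be told apart in their comparison.

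Type I interferons bind a receptor of IFNAR1 and IFNAR2, which brings TYK2 and JAK1 together. The kinases phosphorylate STAT2 and a partner STAT, which join IRF9 and bind the interferon-stimulated response element (ISRE) of target genes, whereas interferon gamma acts through STAT dimers at gamma-activated sites (GAS). IRF3 is made in most cells and, once phosphorylated after sensing of foreign nucleic acid, switches on interferon beta. IRF7 amplifies interferon alpha production, IRF1 is an inducible activator, IRF2 is best known for competing with IRF1 at the same sites, and SOCS1 is an induced inhibitor that binds the kinases and closes the loop.

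Library totals ran from 195186194 to 260878268 estimated counts, so that 3 counts corresponded to 0.0115 to 0.0154 CPM, the usual unit of counts scaled to library size. All levels below are CPM after TMM scaling over the 24 libraries, and log2 fold changes are given ± SE. SF3B2, the gene carried by one of the plasmids, stood at 24053 to 48885 CPM in the 6 libraries transfected with it and at 293 to 372 CPM in 17 of the other 18. The remaining library, A549 scramble replicate 3, stood at 8773 CPM. All 12 A549 markers examined, among them the aldo-keto reductase AKR1B10 and the keratin KRT7, were higher in every A549 library than in every HEK293T library, as were 9 of the 12 HEK293T markers in the reverse direction. IGF2BP1 went the other way, and IGF2BP3 and STMN2 overlapped between the lines. The summed level of the A549 markers was 221 to 257 CPM in 11 HEK293T libraries and 1069 CPM in HEK293T eGFP replicate 3, against 23089 to 25468 CPM in A549. Each of the 12 markers had its highest HEK293T level in that replicate. A549 snaR-A replicate 3 is HEK293T in some of its label fields, and its summed A549 markers stood at 23093 CPM. Calls of members that changed without HEK293T eGFP replicate 3 or A549 scramble replicate 3 are given both ways. For the lists of other pathway genes only some of these changes are given. Where groups or lines are said not to overlap, the share of all genes that were apart in the same way is not given.

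Not every member could be read from the table. The identifier of IRF7 (chromosome 11, 612553-615983, minus strand, GRCh38) held 0 to 27 counts in the HEK293T libraries and 0 to 30 in the A549 libraries. Its highest value, 30 counts or 0.153 CPM, was in A549 scramble replicate 3, and with SF3B2 in A549 all 3 libraries were at 0. IRF7 therefore failed the low-count filter in every comparison between groups of 3. A further 5333 identifiers, which held 2.53% of all counts, had no record in the table of gene symbols used here. Whether any of them carries reads of IRF7 or IRF9 was not tested, so that the level of IRF7 is that of its identifier alone.

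**Figure D1:**
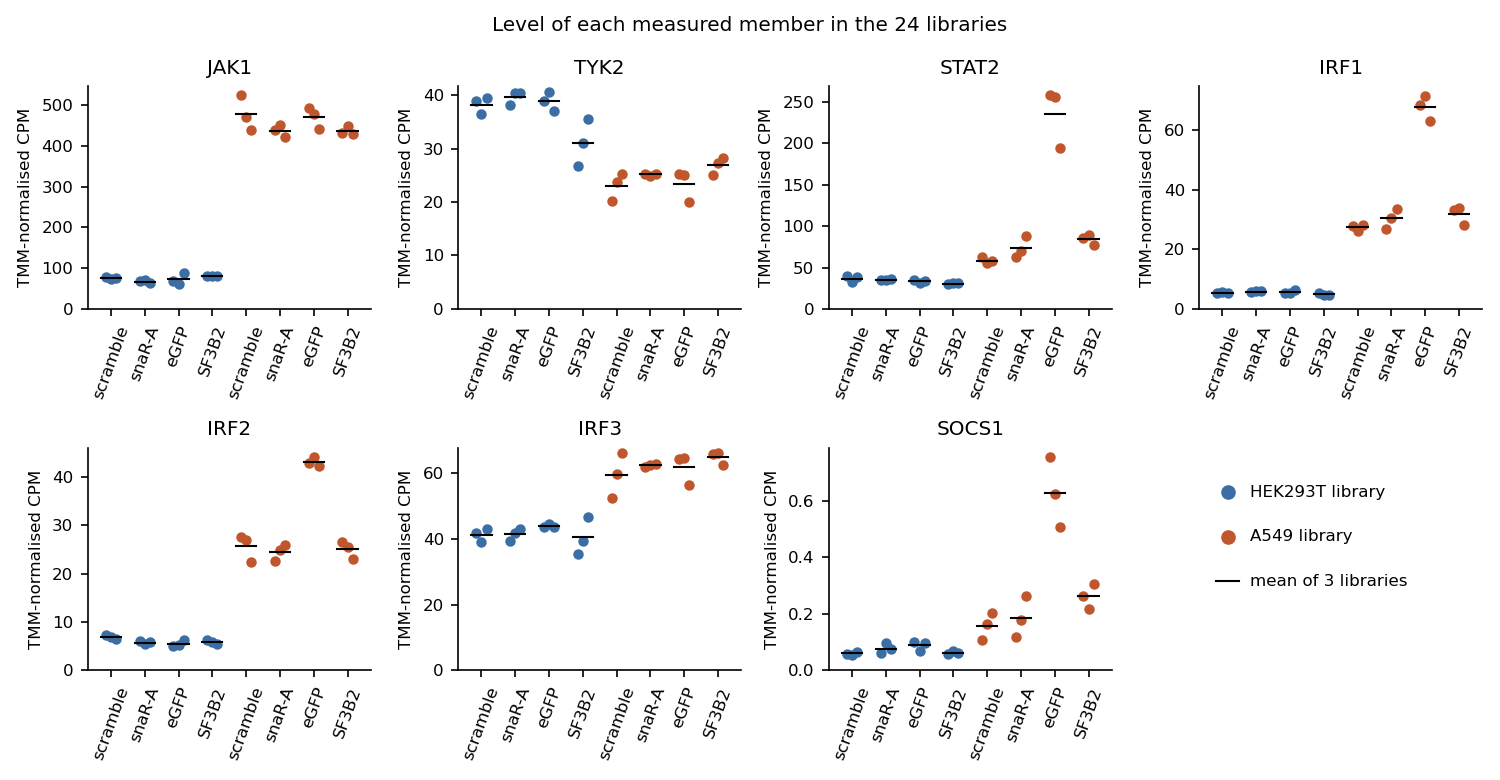
Level of the 7 members that passed the low-count filter, in TMM-normalised CPM on linear axes that start at 0, for the 4 plasmids in HEK293T (blue) and A549 (orange). Each point is a library and each black line the mean of 3. STAT2, IRF1, IRF2 and SOCS1 stand highest in A549 with eGFP, while JAK1, TYK2 and IRF3 differ mainly between the lines.

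The first comparison asks how much of each transducer the lines carried with the control plasmid scramble. All 7 measured members differed between A549 and HEK293T, with 6 higher in A549 and TYK2 lower. Of all 23124 genes tested, 38.2% were higher and 39.3% lower in A549, so that a difference between the lines was common among genes in general. JAK1, the kinase shared by all interferon receptors (chromosome 1, 64833223-65067754, minus strand), read 77.3, 73.0 and 76.1 CPM in HEK293T and 524, 470 and 439 CPM in A549. The lowest A549 library was thus far above the highest HEK293T library, and the log2 fold change was 2.60 ± 0.08 (6.07-fold, adjusted p = 1.94e-08, edgeR's quasi-likelihood test, Benjamini-Hochberg adjusted).

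TYK2, the kinase held by IFNAR1 (chromosome 19, 10350533-10380608, minus strand), went the other way. Its levels were 38.8, 36.4 and 39.5 CPM in HEK293T and 20.2, 23.7 and 25.2 CPM in A549, a log2 fold change of -0.79 ± 0.09 (adjusted p = 4.96e-05). The kinases thus differed between the lines in opposite directions.

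Among the transcription factors the largest differences were those of IRF1 and IRF2. IRF1 (chromosome 5, 132440440-132508719, minus strand) read 5.33, 5.62 and 5.29 CPM in HEK293T and 27.8, 26.3 and 28.1 CPM in A549, 4.85-fold higher (log2 fold change 2.28 ± 0.07, adjusted p = 2.07e-08). IRF2 (chromosome 4, 184385702-184474558, minus strand) read 7.23, 6.98 and 6.47 CPM against 27.5, 27.0 and 22.4 CPM, 3.57-fold higher (1.83 ± 0.10, adjusted p = 5.35e-07). In neither gene did the lines overlap. Activator and competitor were thus both higher in A549.

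STAT2 (chromosome 12, 56341597-56360203, minus strand) and IRF3 (chromosome 19, 49659569-49665875, minus strand) differed less. STAT2 read 39.7, 32.0 and 38.5 CPM in HEK293T and 62.4, 55.1 and 58.0 CPM in A549 (log2 fold change 0.61 ± 0.09, adjusted p = 0.000313). IRF3 read 41.8, 39.3 and 43.0 CPM against 52.4, 59.9 and 66.4 CPM (0.47 ± 0.09, adjusted p = 0.00118). These were the 2 calls that depended on the scaling. With library size in place of TMM the median of all genes moved from -0.01 to -0.41, and STAT2 stood at 0.21 (adjusted p = 0.0771) and IRF3 at 0.07 (adjusted p = 0.577), still above that median.

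SOCS1 (chromosome 16, 11254417-11256204, minus strand) had the fewest counts of the 7 members. It held 17, 16 and 16 counts in HEK293T and 20, 35 and 40 counts in A549, or 0.0588, 0.0560 and 0.0657 CPM against 0.106, 0.163 and 0.204 CPM. The log2 fold change was 1.33 ± 0.33 (adjusted p = 0.00561), with the widest error of the 7 members. With eGFP, snaR-A or SF3B2 in place of scramble the same 6 members were higher in A549 at adjusted p of at most 0.0107. TYK2 was lower with eGFP (-0.76) and snaR-A (-0.68), and with SF3B2 its difference of -0.20 ± 0.11 missed the threshold (adjusted p = 0.128). Without A549 scramble replicate 3 all 7 calls between the scramble groups were made in the same directions, from -0.86 for TYK2 to 2.66 for JAK1. The shares of all genes given above are from all the scramble libraries. None is given for the other plasmids or for the smaller fit, so those calls have no background here.

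**Figure D2:**
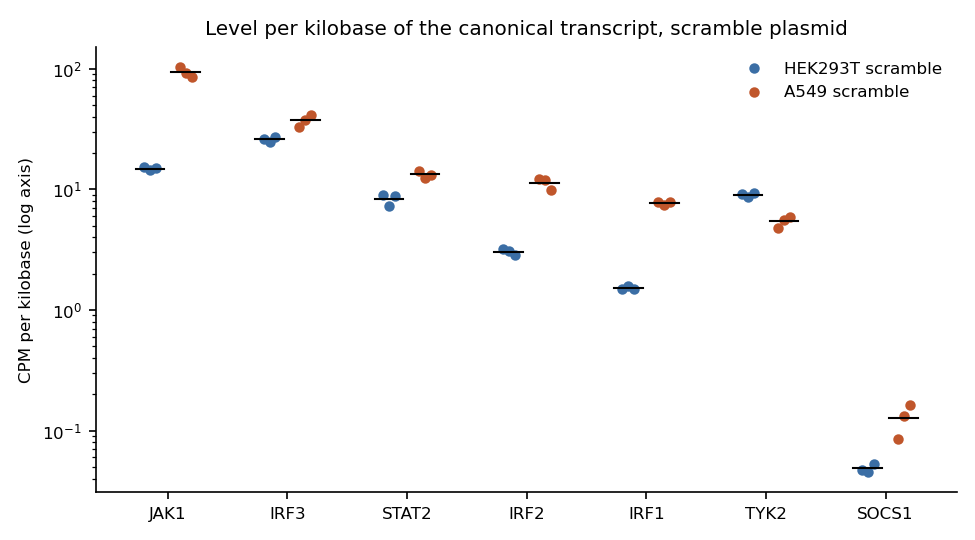
Level per kilobase of the canonical transcript (CPM per kilobase, log axis) in the 3 scramble libraries of HEK293T (blue) and A549 (orange), with the mean as a black line. JAK1 leads in A549 at 93.8 and IRF3 in HEK293T at 25.9, and SOCS1 is lowest in both.

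Levels of different genes were compared per kilobase of the canonical GENCODE 44 transcript. In A549 with scramble the order was JAK1 at 93.8 ± 8.44 CPM per kilobase (SD, n = 3), IRF3 at 37.3 ± 4.37, STAT2 at 13.3 ± 0.83, IRF2 at 11.4 ± 1.24, IRF1 at 7.71 ± 0.27, TYK2 at 5.43 ± 0.61 and SOCS1 at 0.127 ± 0.040. In HEK293T it was IRF3 at 25.9 ± 1.21, JAK1 at 14.8 ± 0.43, TYK2 at 9.01 ± 0.38, STAT2 at 8.34 ± 0.94, IRF2 at 3.05 ± 0.17, IRF1 at 1.52 ± 0.05 and SOCS1 at 0.0486 ± 0.0040. Neighbours in each order had ranges that did not overlap, except TYK2 (8.59 to 9.31) and STAT2 (7.26 to 9.02) in HEK293T. Per kilobase of the union of all exons, the order in HEK293T was the same, but in A549 TYK2 (2.70) passed above IRF1 (2.23). The rank of that pair thus depended on the length used.

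The next comparison asks what the eGFP plasmid did relative to scramble, the controls of the protein and the RNA plasmids respectively. In A549 STAT2, SOCS1, IRF1 and IRF2 rose with eGFP, whereas JAK1, TYK2 and IRF3 were not called. Of all 21578 genes tested, 1.46% were higher at adjusted p under 0.05, against 4 of the 7 members. Those also past a log2 fold change of 1 were 0.904% of all genes and 3 members. The median log2 fold change was 0.74 over the members and -0.01 over all genes. These are bulk libraries, so that a rise in every cell and a larger rise in some of the cells cannot be told apart.

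STAT2, the subunit particular to the type I and type III interferon response, and SOCS1 had the highest log2 fold changes, which lay within their errors of each other. STAT2 read 62.4, 55.1 and 58.0 CPM with scramble and 258, 256 and 194 CPM with eGFP. Every eGFP library was far above every scramble library, and the log2 fold change was 2.01 ± 0.11 (4.02-fold, adjusted p = 0.000138). In the alternative fits and the fits without a library its value lay between 1.94 and 2.13.

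IRF1 read 27.8, 26.3 and 28.1 CPM with scramble and 68.5, 71.5 and 63.2 CPM with eGFP, 2.46-fold higher (log2 fold change 1.30 ± 0.06, adjusted p = 8.13e-05). IRF2, which can compete for the same sites, read 27.5, 27.0 and 22.4 CPM against 42.8, 44.1 and 42.2 CPM, 1.67-fold higher (0.74 ± 0.08, adjusted p = 0.00495). The groups were apart in both genes.

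SOCS1 rose from 20, 35 and 40 counts to 159, 132 and 94 counts, or from 0.106, 0.163 and 0.204 CPM to 0.754, 0.624 and 0.509 CPM. Every eGFP library was above every scramble library, and the log2 fold change was 1.99 ± 0.27 (3.97-fold, adjusted p = 0.0132). At these counts the call was the least secure of the 4. It was lost without A549 eGFP replicate 1, without A549 eGFP replicate 2 and without A549 scramble replicate 2, where the adjusted p rose to at most 0.0833 at log2 fold changes from 1.78 to 2.21 over all libraries left out.

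The members that did not pass the test were the kinases and the constitutive factor. JAK1 read 524, 470 and 439 CPM with scramble and 493, 479 and 442 CPM with eGFP (log2 fold change -0.03 ± 0.08). TYK2 read 20.2, 23.7 and 25.2 CPM against 25.2, 25.02 and 20.1 CPM (0.02 ± 0.11). IRF3 read 52.4, 59.9 and 66.4 CPM against 64.5, 64.7 and 56.5 CPM (0.05 ± 0.09). In all 3 genes the groups overlapped, and their adjusted p was at least 0.987. Without A549 scramble replicate 3 the same 4 members were called, with log2 fold changes of 2.21 for SOCS1, 1.32 for IRF1 and 0.65 for IRF2 and a 4-fold rise of STAT2 (± 0.14 on the log2 scale).

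Sequences upstream of the RefSeq start sites (250 bases before to 50 after) were at hand for 5 of the measured members, JAK1, TYK2, STAT2, IRF1 and SOCS1, in 7 promoters of which 3 belong to JAK1. IRF2, IRF3 and IRF7 had none. They were searched on both strands for an ISRE core, a pair of GAAA tetramers separated by 2 bases, and for a GAS core, TTCNNNGAA. The ISRE core is in 3.57% and the GAS core in 7.66% of the 35116 promoters of the table. Of the 5 members, IRF1 and SOCS1, which rose with eGFP in A549, each held 1 match. They are shown, 5′ to 3′ on the strand of the gene and with the match in capitals, because they are the only matches found for the members.
IRF1 GAS core: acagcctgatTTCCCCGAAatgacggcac
SOCS1 ISRE core: cgccaccgcgGAAAGAGAAAccaaaagtgg
The IRF1 match lies 116 to 124 bases before the start, within the printed stretch chr5:132490879-132490907 (minus strand, GRCh38.p14). That stretch is inside the span of the gene, since other IRF1 transcripts start farther upstream. The SOCS1 match lies 104 to 113 bases before the start, within chr16:11256298-11256327 (minus strand) and outside the span of SOCS1. STAT2, which also rose, held neither core in its window, and neither did JAK1 or TYK2. A match in letters does not show that a factor binds there.

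SF3B2 was compared with eGFP, the control in the same backbone, to ask what overexpression of the splicing factor did. In A549 the same 4 members stood lower with SF3B2 than with eGFP, against 3.6% of all 21581 genes lower. Of these, 3 were past a log2 fold change of -1, against 0.802% of all genes. The eGFP libraries are the same 3 as in the comparison with scramble, so that the values of both comparisons are not independent. STAT2 read 85.6, 89.5 and 77.8 CPM with SF3B2 against 258, 256 and 194 CPM with eGFP (log2 fold change -1.47 ± 0.11, adjusted p = 0.000653). IRF1 read 33.3, 33.8 and 28.3 CPM against 68.5, 71.5 and 63.2 CPM (-1.08 ± 0.07, adjusted p = 0.000448). The groups were apart in each.

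IRF2 read 26.6, 25.4 and 23.1 CPM with SF3B2 against 42.8, 44.1 and 42.2 CPM with eGFP (log2 fold change -0.77 ± 0.05, adjusted p = 0.00043), and so lay within its scramble range of 22.4 to 27.5 CPM. SOCS1 read 0.265, 0.218 and 0.306 CPM (48, 44 and 56 counts) against 0.754, 0.624 and 0.509 CPM (-1.25 ± 0.21, adjusted p = 0.0166). That call was lost when 1 of 4 libraries was left out, A549 eGFP replicate 1 or 2 or A549 SF3B2 replicate 1 or 2, at an adjusted p of up to 0.08 and log2 fold changes between -1.37 and -1.10. JAK1 (-0.10), IRF3 (0.08) and TYK2 (0.21) were not called, at adjusted p between 0.222 and 0.435. JAK1 was called without A549 eGFP replicate 3, at -0.14 (adjusted p = 0.0295).

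Against scramble, which has the other backbone, SF3B2 in A549 left 1 member called, STAT2, with a log2 fold change of 0.53 ± 0.07 (1.45-fold, adjusted p = 0.0463). Of all 21461 genes 0.214% were higher. The STAT2 levels of 77.8 to 89.5 CPM with SF3B2 were above all scramble libraries (55.1 to 62.4 CPM) and below all eGFP libraries. The call rested on few libraries. It was lost without A549 scramble replicate 2 and without each of the SF3B2 libraries, at log2 fold changes from 0.48 to 0.59 over all libraries left out. Without A549 scramble replicate 3, the library in which SF3B2 itself stood at 8773 CPM, 4 members were called: STAT2 at 0.51 (adjusted p = 0.00736), IRF3 at 0.20 (adjusted p = 0.0464), JAK1 at -0.19 (adjusted p = 0.0476) and TYK2 at 0.29 (adjusted p = 0.0476). The 0.214% above is from the fit of all 6 libraries. No share of all genes is given for the smaller fit, so these 4 calls have no background here. SOCS1, at 0.74 ± 0.29, and IRF1, at 0.22 ± 0.07, stood above scramble in every library with all 6 libraries used, and neither passed the test (adjusted p = 0.374 for each). The share of all genes that stood above scramble in this way is not given here.

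snaR-A was compared with scramble to ask what the noncoding RNA did. In A549 no member was called by edgeR's quasi-likelihood F-test, its exact test or DESeq2, and 1 member, STAT2, had an unadjusted p under 0.05. Of all 21662 genes 0.0185% were called. STAT2 read 63.3, 69.9 and 88.0 CPM with snaR-A against 62.4, 55.1 and 58.0 CPM (log2 fold change 0.33 ± 0.12, adjusted p = 0.794). The highest of these values, in snaR-A replicate 3, came with the highest summed level of 18 interferon-induced effector genes among the 6 libraries (1285 CPM, against 754 and 886 CPM in the other snaR-A libraries and 668 to 755 CPM with scramble). Its part in the STAT2 value can be read from the fit without it, which gave 0.18 (adjusted p = 0.889). The other 6 members lay between -0.13 (JAK1) and 0.24 (SOCS1). Without A549 scramble replicate 3 no member was called either, with STAT2 at 0.32 (adjusted p = 0.238).

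**Figure D3:**
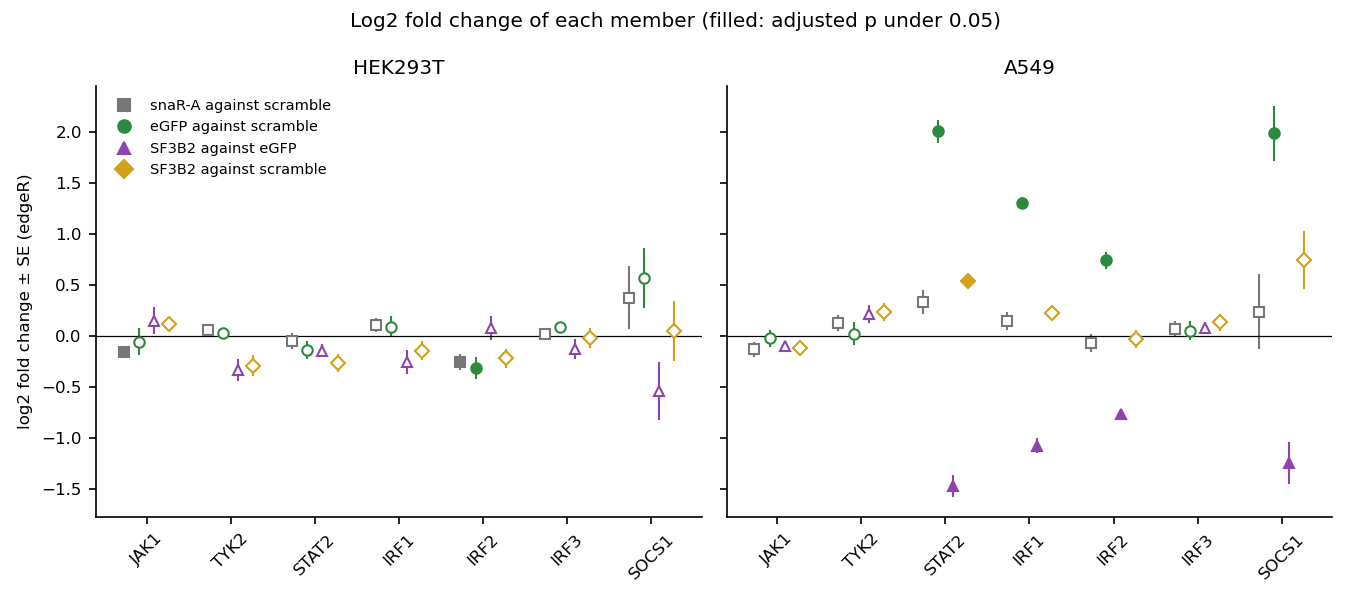
Log2 fold change ± SE of the 7 measured members in 4 comparisons in HEK293T (left) and A549 (right), on a shared linear axis, where filled symbols passed adjusted p under 0.05 in edgeR's quasi-likelihood F-test. In A549 the eGFP symbols of STAT2, SOCS1, IRF1 and IRF2 lie at 0.74 to 2.01 and their SF3B2 against eGFP symbols at -0.77 to -1.47, while in HEK293T the 3 called values lie between -0.32 and -0.16.

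In HEK293T the members moved little. With eGFP against scramble 1 member was called, IRF2, lower at 5.07, 5.27 and 6.24 CPM against 7.23, 6.98 and 6.47 CPM (log2 fold change -0.32 ± 0.11, adjusted p = 0.0408). Since 25.8% of all 22613 genes were lower in this comparison, 1 lower member of 7 is no more than the background. STAT2 read 34.9, 31.2 and 34.1 CPM against 39.7, 32.0 and 38.5 CPM (-0.14 ± 0.09, adjusted p = 0.224), but was called lower without scramble replicate 2, at -0.24 (adjusted p = 0.0213). IRF1 read 5.29, 5.48 and 6.51 CPM against 5.33, 5.62 and 5.29 CPM (0.09 ± 0.10, adjusted p = 0.507). SOCS1 read 27, 18 and 23 counts against 17, 16 and 16 counts (0.57 ± 0.29, adjusted p = 0.146).

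The third eGFP library, with 1069 CPM of A549 markers, had the highest level of its group in JAK1 (89.1 CPM, against 67.5 and 60.8 CPM), IRF1 and IRF2. STAT2, IRF3 and SOCS1 were not highest in it. With scramble they too stood higher in A549 than in HEK293T, but by less, at log2 fold changes of 0.61, 0.47 and 1.33. Those of JAK1, IRF1 and IRF2 were 2.60, 2.28 and 1.83. Why the levels of this library differed was not tested. Without this library JAK1 was called lower with eGFP, at 64.1 CPM on average and a log2 fold change of -0.23 (adjusted p = 0.0189), where the fit with it gave -0.06 ± 0.13 (adjusted p = 0.743). IRF2 stood at -0.41 without it (adjusted p = 0.00711). The IRF2 call was lost without eGFP replicate 1 or 2 and without scramble replicate 1 or 2, at values between -0.32 and -0.26.

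**Figure D4:**
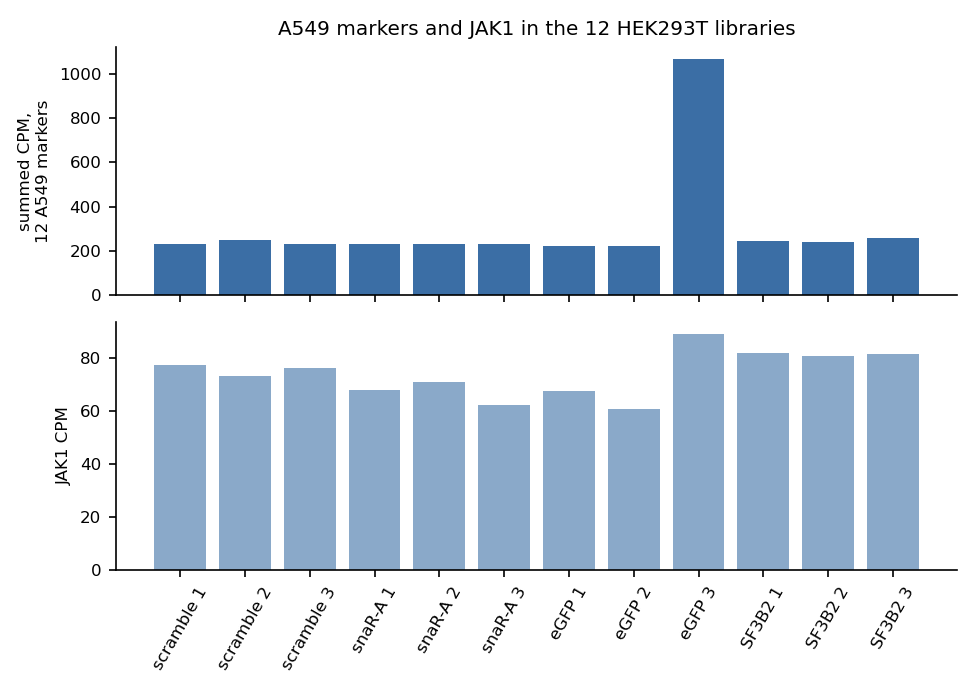
Summed level of 12 A549 markers (top, CPM) and level of JAK1 (bottom, CPM) in each of the 12 HEK293T libraries, on linear axes that start at 0. The eGFP 3 library stands at 1069 CPM of A549 markers against 221 to 257 CPM in the other 11, and has the highest JAK1 level, 89.1 CPM.

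With snaR-A in HEK293T, IRF2 (5.99, 5.43 and 5.80 CPM, log2 fold change -0.25 ± 0.08, adjusted p = 0.0302) and JAK1 (67.7, 71.0 and 62.3 CPM, -0.16 ± 0.05, adjusted p = 0.0396) were lower than with scramble. Against a background of 18.5% of 22667 genes lower, 2 of 7 members is near what any genes would show. Leaving out scramble replicate 1 or snaR-A replicate 3 ended both calls. Leaving out scramble replicate 2 or snaR-A replicate 2 ended that of IRF2, and leaving out scramble replicate 3 or snaR-A replicate 1 that of JAK1. STAT2 was called without scramble replicate 2, at -0.14 (adjusted p = 0.0246). With SF3B2 no member was called against eGFP by the quasi-likelihood test, the exact test or DESeq2 (1 at an unadjusted p under 0.05), where 0.172% of 22623 genes were. TYK2 was called without SF3B2 replicate 3, at -0.42 (adjusted p = 0.0412). Against scramble none was called by the quasi-likelihood test (2 at an unadjusted p under 0.05), where 34.3% of 22593 genes were, but the exact test and DESeq2 each called STAT2 and TYK2. These read 29.5, 30.8 and 31.1 CPM for STAT2 (-0.26 ± 0.09, adjusted p = 0.0538) and 26.7, 31.1 and 35.6 CPM for TYK2 (-0.29 ± 0.10, adjusted p = 0.0641), each below every scramble library. IRF1 and IRF2 were also below every scramble library and JAK1 was above, none of them called by the quasi-likelihood test. The share of all genes apart in this way is not given here. STAT2 was called without scramble replicate 2 (adjusted p = 0.0177) and TYK2 without SF3B2 replicate 3 (adjusted p = 0.00948).

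The difference between the lines was tested itself, as an interaction of line and plasmid over 12 libraries. The effect of eGFP was larger in A549 than in HEK293T for STAT2 by 2.21 ± 0.16 on the log2 scale (adjusted p = 2.09e-05), for SOCS1 by 1.48 ± 0.39 (adjusted p = 0.017), for IRF1 by 1.27 ± 0.12 (adjusted p = 7.96e-05) and for IRF2 by 1.12 ± 0.14 (adjusted p = 0.000418). It was larger in A549 for 15.6% of all 24763 genes. JAK1, TYK2 and IRF3 lay between 0.02 and 0.09 (adjusted p of at least 0.759), and IRF7, which passed the filter in this fit alone, at an adjusted p of 0.0847. The effect of SF3B2 against eGFP was lower in A549 for STAT2 by -1.35 ± 0.14 (adjusted p = 0.000969), for IRF2 by -0.87 ± 0.12 (adjusted p = 0.00526) and for IRF1 by -0.85 ± 0.14 (adjusted p = 0.00973), against 3.52% of all 24714 genes. SOCS1 (-0.73 ± 0.32, adjusted p = 0.175) and TYK2 (0.52 ± 0.16, adjusted p = 0.0713) were not called, but TYK2 was called without HEK293T SF3B2 replicate 3 (adjusted p = 0.0174), with DESeq2 (adjusted p = 0.0145), in the fit of all 24 libraries (adjusted p = 0.0188) and with at least 10 counts in every library (adjusted p = 0.0472).

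Without HEK293T eGFP replicate 3 the same members were called in these tests, and the eGFP differences were 2.24 for STAT2, 1.57 for SOCS1, 1.39 for IRF1 and 1.24 for IRF2. Without A549 scramble replicate 3 the eGFP differences were 2.15, 1.66, 1.24 and 0.99, and the same 4 members were called. In the SF3B2 test without HEK293T eGFP replicate 3 JAK1 was then called as well, at -0.45 (adjusted p = 0.0169), where the fit with that library gave -0.27 ± 0.16 (adjusted p = 0.293). For snaR-A no member differed between the lines by the quasi-likelihood test (1, STAT2, at an unadjusted p under 0.05), against 11.4% of all 24784 genes, and DESeq2 called STAT2.

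The rest of the pathway was read from lists of genes around the members. In A549 with eGFP none of the 6 interferon receptor genes, the 7 other Janus kinase and STAT genes or the 7 other IRF and IRF2-binding protein genes was called, with median log2 fold changes of 0.11, 0.14 and 0.19. Among 16 negative regulators 1 was called, USP18, a protease that removes ISG15 and blocks the IFNAR2 receptor chain. It read 85.8, 88.5 and 65.9 CPM with eGFP against 14.1, 13.9 and 15.4 CPM with scramble (2.46 ± 0.12, adjusted p = 8.13e-05). The other 15 were not called.

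Of 11 measured adaptors and kinases upstream of IRF3 and IRF7, 2 rose: MYD88, the adaptor of most Toll-like receptors, from 28.5 to 33.1 CPM with scramble to 74.6 to 76.0 CPM with eGFP (1.27 ± 0.06, adjusted p = 0.000101), and the TBK1-binding protein AZI2 (0.58 ± 0.06, adjusted p = 0.00289). Of 9 interferon genes 5 passed the filter and 4 rose, IFNB1, IFNL1, IFNL2 and IFNL3, by 3.47 to 4.41. IFNB1 read 0.0477, 0.121 and 0.183 CPM with scramble and 1.31, 1.54 and 1.08 CPM with eGFP. IFNL2 and IFNL3 are near-identical copies, and how their reads were split is uncertain. All 18 effector genes rose, with a median of 3.27, led by XAF1 (16.4-fold), the nucleotide kinase CMPK2 (16.0-fold), the oligoadenylate synthetase OAS2 (16.0-fold) and the GTPase MX2 (12.3-fold).

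**Figure D5:**
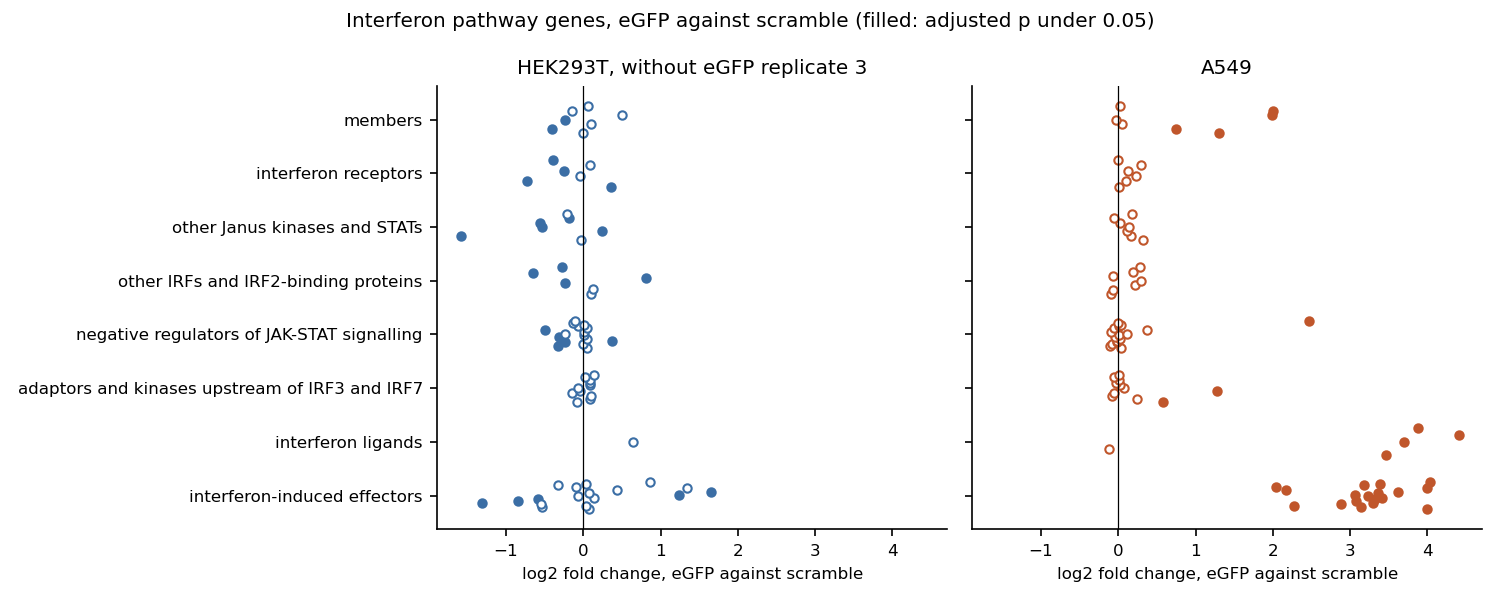
Log2 fold change with eGFP against scramble of the members and of 7 lists of pathway genes, on a shared linear axis, in HEK293T without eGFP replicate 3 (left) and in A549 (right). Each point is a gene, and filled points passed adjusted p under 0.05. In A549 the 18 effectors have a median of 3.27 and most receptor, STAT and IRF genes lie near 0, while in HEK293T the effectors have a median of 0.04.

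In A549 with SF3B2 against eGFP all 18 effectors, 4 interferon genes, USP18 (-1.72 ± 0.11), AZI2 (-0.42 ± 0.05) and MYD88 (34.4 to 39.6 CPM, adjusted p = 0.00015) were lower, along with the 4 members. Falls were also called for the receptor chain IFNGR1 (-0.19), for JAK2 (-0.32), STAT4 (-0.28) and STAT6 (-0.22) and for IRF4 (-0.83), while IRF2BP1 (0.31) and the kinase IRAK1 (0.23) were higher. Against scramble 10 of the 18 effectors were higher with SF3B2 (median 1.08), and 15 without A549 scramble replicate 3. The interferon genes were called in none of the 5 tested with all libraries and in 4 of the 5 without that replicate. Calls grew in other lists too. Of the 16 negative regulators 2 were higher and 6 lower without it, against 1 and 0 with all libraries. Of the 7 other IRF and IRF2-binding protein genes 3 were higher and 1 lower, against 0 and 0. The share of all genes called without that replicate is not given here. With snaR-A none of the lists had a called gene, and the effectors had a median of 0.63, or 0.30 without A549 snaR-A replicate 3.

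In HEK293T with eGFP against scramble 1 of the 6 receptor genes was higher and 3 were lower, in a comparison where 22.9% of all genes were higher and 25.8% lower. Those lower were IFNAR2, IL10RB (-0.39, adjusted p = 0.00437) and IFNGR2 (-0.27, adjusted p = 0.00625). IFNAR2, the chain that docks JAK1 and STAT2, read 22.6, 23.2 and 23.4 CPM with eGFP against 37.6, 39.8 and 36.5 CPM with scramble (log2 fold change -0.72 ± 0.05, adjusted p = 9.85e-05). IFNAR1, the chain that docks TYK2, read 44.7, 43.8 and 45.8 CPM against 34.6, 33.7 and 35.6 CPM (0.37 ± 0.04, adjusted p = 0.000439). Of the 7 other Janus kinase and STAT genes, STAT3 was higher (0.29), and JAK3, STAT4 (-0.40) and STAT5B (-0.17) were lower. Of 6 tested genes of the other IRF and IRF2-binding protein list, 1 was higher and 3 were lower. JAK3, the kinase of common gamma chain cytokine receptors, read 2.06, 1.76 and 1.83 CPM against 6.27, 5.33 and 5.68 CPM (-1.61 ± 0.11, adjusted p = 0.000105). IFNAR2, IFNAR1 and JAK3 were called in these directions with snaR-A and with SF3B2 against scramble as well, comparisons that share the scramble libraries.

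The effector list in HEK293T depended on the third eGFP library. With it, 4 of 18 effectors were higher and 2 lower, with a median of 1.16, so that the called counts were near or below those same shares of all genes. Without it 2 were higher, ISG15 and MX2, and 3 lower, IFI44L, IFI6 and IFIT1, with a median of 0.04. The summed effector level was 87.4 CPM in that library and 52.6 to 66.0 CPM in the other 11 HEK293T libraries, against 4276 to 5490 CPM in A549 with eGFP. The eGFP effect was larger in A549 for 10 of the 18 effectors with that library and for all 18 without it. The shares of all genes given for these tests come from fits that include that library. None is given for the fits without it, so those counts have no background here. OAS2 read 0.665 CPM in that library and 0.0560 and 0.0615 CPM in the other eGFP libraries.

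Over the 24 libraries, with log2 CPM centred within each line, the genes whose pattern was most like that of each member were found among 11784 genes. They are given with Pearson's r as a description, since the libraries share plasmids and depth. STAT2 was most like APOL2, PLSCR1 and PLEKHA4 (r = 0.989, 0.988 and 0.982), IRF2 like TRIM5, MASTL and LAMP3 (0.977, 0.961 and 0.953), and SOCS1 like ISG15, OGFR and TDRD7 (0.921, 0.905 and 0.898). For IRF1 the named genes include IFI35 and GBP1 (0.973 and 0.971). The members not called with eGFP in A549 had other genes at the top: JAK1 with genes that include PGM2L1 and DPYSL2 (0.854 and 0.835), IRF3 with CDC42SE1, CHPF2 and SPNS1 (0.907, 0.883 and 0.881), and TYK2 with AKR1A1, CCDC22 and FAAP100 (0.936, 0.934 and 0.933). None of these 8 genes is in the lists above, and of the genes named for STAT2, IRF1, IRF2 and SOCS1 only ISG15 is.

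JAK1, IRF1, IRF2, IRF3 and SOCS1 overlap genes on the opposite strand (among them RAVER2, IRF1-AS1, SNORD79, BCL2L12 and RMI2). The kit keeps strand, but the strand setting of the quantification is not given in the sources used here, so that reads of these partners within the values above were not tested. JAK1, IRF2 and STAT2 also overlap genes on their own strand (among them LINC01359 and RNU7-40P), whose reads were not tested either.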

How the data were processed

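rRNA-depleted, poly(A)-selected RNA of 24 transfected cultures was sequenced from stranded libraries. Per the labels and the study's methods the authors trimmed reads with TrimGalore, estimated abundance with Salmon on the hg38 transcriptome and tested with edgeR. They deposited estimated counts per Ensembl gene, not normalised. The transcriptome release and the strand setting are not given in the sources used here.

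Estimated counts were rounded and tested with edgeR 4.0.16 (R 4.3.3), using filterByExpr, TMM and the quasi-likelihood F-test. P-values were adjusted over all genes tested by the method of Benjamini and Hochberg, with a call at adjusted p under 0.05. Each comparison used its 6 libraries, and each interaction test 12. Scripts were tested on simulated data. The replicates are cultures handled on the same day, so that p-values measure the spread between these samples only, and limits of 3 counts cover counting error only. Symbols were matched for 54903 of 60236 identifiers. Gene positions and lengths came from GENCODE 44 (GRCh38) and promoters from RefSeq (GRCh38.p14).

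The members and gene lists were chosen with earlier results of these data known. Genes named were all members, from each list at most 4 called genes with the largest change in a comparison, and the 3 genes most like each member, of which 2 are not reported here. The 5 effectors called in HEK293T without eGFP replicate 3 were named after their values were seen. Alternatives were the exact test, DESeq2 1.42.0, RLE or library size scaling, no filter or at least 10 counts, all libraries in one fit, a replicate block and leaving out each library. Same-numbered libraries showed no strong shared deviation: over 18 pairs per line, their deviations correlated at -0.131 to 0.102 in A549 and -0.0385 to 0.0588 in HEK293T. Whether replicate numbers mark shared cultures cannot be told from these correlations.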

Additional observations from a re-analysis of the deposited data

Results flagged for a closer look

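The effect of eGFP against scramble differed between the lines by the interaction test for STAT2 (2.21 on the log2 scale, larger in A549), SOCS1 (1.48), IRF1 (1.27) and IRF2 (1.12). The effect of SF3B2 against eGFP differed by the same test for STAT2 (-1.35, lower in A549), IRF2 (-0.87) and IRF1 (-0.85). Both tests use the same 6 eGFP libraries, and HEK293T eGFP replicate 3 is one of them.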

How the results depend on the processing

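Of the 84 results for single members, 26 were called, and over 1300 alternative values none of these changed sign. Of the 58 uncalled results 24 did under some alternative. The calls of STAT2, IRF1 and IRF2 in A549 with eGFP against scramble and with SF3B2 against eGFP held under every alternative run. With a replicate block the SOCS1 calls were lost with eGFP against scramble (adjusted p = 0.181), with SF3B2 against eGFP (adjusted p = 0.0591) and in the eGFP interaction (adjusted p = 0.0654). The number of members called in HEK293T with eGFP against scramble went from 1 to 0 with the exact test and with the replicate block, and ranged from 0 to 2 with a library left out. With snaR-A in HEK293T it went from 2 to 0 in a fit of all 12 libraries and to 1 with the exact test, the replicate block or RLE scaling, and ranged from 0 to 2 with a library left out. Library size scaling kept the count of 2 but replaced IRF2 and JAK1, both lower, by IRF1 (0.20, adjusted p = 0.0472) and TYK2 (0.16, adjusted p = 0.0303), both higher, and with eGFP against scramble in HEK293T it replaced IRF2 by IRF3 (0.20, adjusted p = 0.0178). With SF3B2 against eGFP in HEK293T it went from 0 to 1 (TYK2) in the fit of 12 libraries, and to at most 1 with a library left out. With SF3B2 against scramble in HEK293T it went from 0 to 2 in the fit of 12 libraries, with DESeq2, the exact test or no filter, and to 1 with library size scaling or with a library left out. With SF3B2 against scramble in A549 it went from 1 to 0 in the fit of 12 libraries and with library size scaling, RLE scaling or the replicate block, and ranged from 0 to 4 with a library left out. In the snaR-A interaction DESeq2 called 1 member against 0. The cause of these shifts was not tested. SOCS1 rests on 15 to 159 counts a library, which limits its precision, and the identifier of IRF7 held too few (0 to 30) for a fold change to be read.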
